A study of Mus musculus with 8 samples.

Results

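The fatty acid elongase genes Elovl1, Elovl2, Elovl3, Elovl5 and Elovl7 and the fatty acid desaturase genes Fads1, Fads2, Fads3 and Fads6 were followed in mouse liver with and without hepatic deletion of Arid1a. These 9 genes, chosen by symbol as the Elovl elongases other than Elovl6 together with the Fads desaturases, were among 35638 genes in the deposited table. Whole frozen liver of mice at postnatal day 90, on a C57/B6 and 129 mixed background, was profiled by RNA sequencing. The KO group (4 libraries) was Arid1a Fl/Fl; Alb-cre, and the WT group (4 libraries) was Arid1a Fl/Fl without the Cre transgene. Both groups therefore carried the floxed alleles, so the WT group is not free of engineered alleles. Alb-cre is driven by the albumin promoter, which is active in hepatocytes. Cells of the liver in which this promoter was never active keep the intact gene. ARID1A is a subunit of the BAF (SWI/SNF) chromatin remodelling complex and binds DNA. The comparison asks whether loss of Arid1a changes the genes that lengthen and desaturate fatty acids in the liver. Whether each library is a different mouse is not stated in the labels, and the p-values below refer to the spread among these 8 libraries, which may be technical in part. In bulk tissue, fewer cells of a type and less RNA per cell cannot be told apart.

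Dietary linoleic and alpha-linolenic acid are turned into longer and more unsaturated fatty acids by alternating desaturation and elongation in the endoplasmic reticulum, and the liver is a main site of this pathway. FADS2 makes the first desaturation, ELOVL5 lengthens the product, FADS1 makes the next desaturation to arachidonic or eicosapentaenoic acid, and ELOVL2 lengthens further towards docosahexaenoic acid. ELOVL1, ELOVL3 and ELOVL7 act mainly on saturated and monounsaturated acids, and the very long products go into sphingolipids and other complex lipids. Each elongation is the first of a cycle of reactions, whose later steps are carried out by HSD17B12, the HACD dehydratases and TECR.

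Elongases and membrane desaturases share histidine boxes, short runs of histidine codons whose side chains hold the iron of the active site in desaturases and are needed for catalysis in elongases. The coding sequence around these boxes is shown to identify the enzymes and to show how alike the family members are at the RNA level, since reads from near-identical stretches could be divided among paralogs. All are in GENCODE M21 transcripts on GRCm38, 5′ to 3′ on the coding strand, with the codons of the box in capitals. Elovl3 and Fads1 were not searched for these boxes, so the lack of a stretch for them does not mean that they have none. The elongase box has the pattern HXXHH, where X is any residue.

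Elovl1: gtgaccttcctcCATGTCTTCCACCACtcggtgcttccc
Elovl2: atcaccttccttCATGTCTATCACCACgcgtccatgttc
Elovl5: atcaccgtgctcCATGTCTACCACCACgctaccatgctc
Elovl7: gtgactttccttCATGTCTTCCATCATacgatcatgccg

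These stretches lie in coding exons at chr4:118431442-118431480 on the plus strand (Elovl1), chr13:41189989-41190027 on the minus strand (Elovl2), chr9:77976838-77976876 on the plus strand (Elovl5) and chr13:108274319-108274357 on the plus strand (Elovl7). The Elovl2 and Elovl5 stretches, from the elongases that act on polyunsaturated acids, were identical at 32 of 39 bases. Elovl1 and Elovl7 were identical at 29 of 39 bases, and the other elongase pairs at 25 or 26.

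Fads2 HXXHH: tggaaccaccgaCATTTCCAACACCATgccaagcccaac
Fads3 HXXHH: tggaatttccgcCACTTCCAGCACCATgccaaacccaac
Fads6 HXXHH: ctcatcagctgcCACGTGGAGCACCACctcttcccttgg
Fads2 QXXHH: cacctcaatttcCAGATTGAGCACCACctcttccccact
Fads3 QXXHH: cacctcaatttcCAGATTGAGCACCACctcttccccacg

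The desaturase HXXHH stretches lie at chr19:10082634-10082672 on the minus strand (Fads2), chr19:10054245-10054283 on the plus strand (Fads3) and chr11:115284224-115284262 on the minus strand (Fads6). They are grouped by pattern alone. The box is at codons 217 to 221 of 443 in Fads2 and 223 to 227 of 448 in Fads3. In Fads6 it is at codons 277 to 281 of 341, so it need not correspond to those boxes. Fads2 and Fads3 also have a box in which glutamine takes the place of the first histidine (QXXHH). Its stretch is split by an intron in both genes, within chr19:10064799-10065627 (Fads2) and chr19:10056271-10056437 (Fads3). The QXXHH stretches of Fads2 and Fads3 were identical at 38 of 39 bases, and their HXXHH stretches at 32 of 39. Over the whole transcripts, however, 5 of 3291 runs of 50 bases in Fads2 occurred in Fads3, so a read of that length could seldom fall in both. Of the other members, Fads6 shared 1.69% of its runs with other genes, Elovl1 shared 4 runs, Elovl7 shared 1, and Elovl2, Elovl3, Elovl5 and Fads1 shared 0. Exons of Elovl1 overlapped those of Cdc20 on the opposite strand over 53 bases (1.94% of its exon bases), and whether counting used the strand is not given.

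Depth was estimated at between 12400000 (WT 4) and 15200000 (KO 2) reads. Arid1a was at 2.70, 2.86, 3.46 and 2.59 FPKM in the KO libraries, against 5.16, 8.38, 3.998 and 4.10 FPKM in the WT libraries. FPKM counts fragments relative to transcript length and to the size of the library, so it is a level per length. The Arid1a ranges did not overlap (exact two-sided permutation p = 0.0286, the smallest that 4 against 4 libraries can give), while the limma adjusted p was 0.316. Transcripts of 7 hepatocyte markers summed to 31518 to 45073 FPKM in KO libraries and 28104 to 38494 FPKM in WT libraries, so the defining transcripts of the labelled tissue were abundant. Macrophage markers summed to 13.6 to 103 FPKM in KO libraries and 5.15 to 9.53 FPKM in WT libraries, and 8 of 9 were higher in every KO library than in any WT library. The same held for 6 of 8 stellate markers (9.11 to 22.4 FPKM summed in KO, 1.90 to 5.98 FPKM in WT). It also held for 4 of 7 endothelial markers (4.42 to 14.0 FPKM in KO, 1.54 to 3.82 FPKM in WT). Beside these, 3.05% of all tested genes had every KO library above every WT library. By limma, 0 of the tested macrophage, stellate and endothelial markers had an adjusted p under 0.05. The unadjusted p was under 0.05 for 8 of 8 tested macrophage, 2 of 2 stellate and 4 of 4 endothelial markers. Of all tested genes, 9.81% had an unadjusted p under 0.05. Several of the markers that were higher in every KO library averaged below 1 FPKM and were not tested. Lymphocyte markers summed to 0.310 to 1.07 FPKM in KO and 0.0161 to 0.290 FPKM in WT. Cholangiocyte markers summed to 0.527 to 6.82 FPKM in KO and 0.269 to 0.792 FPKM in WT. This sum was mostly Spp1 in the KO libraries and WT 1, and mostly Sox9 in WT 2, WT 3 and WT 4. Sox9 was lower in every KO library than in any WT library. Erythroid markers summed to 1.86 to 3.14 FPKM in KO and 0.972 to 2.61 FPKM in WT. Of 3 adipocyte markers in the table, 2 were listed at 0 in all libraries, and their sum reached 0.0291 FPKM in KO libraries and was listed at 0 in WT libraries. The part these cells play in the values below was not tested.

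No elongase or desaturase member passed the test between KO and WT livers, and no member had KO and WT ranges that stood apart. With limma on log2(FPKM + 1) over the 11266 genes with a mean of at least 1 FPKM, 7 of the 9 members were tested. At a Benjamini-Hochberg adjusted p under 0.05, 0 of these were higher in KO and 0 were lower. The unadjusted p was under 0.05 for 0 of them. Among all tested genes, 0.408% were called higher in KO (46 genes) and 0.355% lower (40 genes), together 0.763%. A count of 0 among 7 genes is near that background. The counts over all genes moved with single libraries, to between 20 and 92 higher and between 14 and 44 lower with 1 library left out, the highest without KO 2. In 0 of the 9 members were the KO and WT ranges apart. Of all tested genes, 3.05% had every KO library above every WT library and 3.18% had every KO library below. This count of 0 is also near the background, and Elovl3 and Elovl7 are not among the tested genes. The members' changes were positive for 5 genes and negative for 2, with a median log2 change of 0.13, beside a median of -0.03 over all tested genes. The FPKM of the 9 members summed to 709, 619, 501 and 657 in the KO libraries, against 599, 484, 609 and 590 in the WT libraries, and the ranges overlapped.

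**Figure D1:**
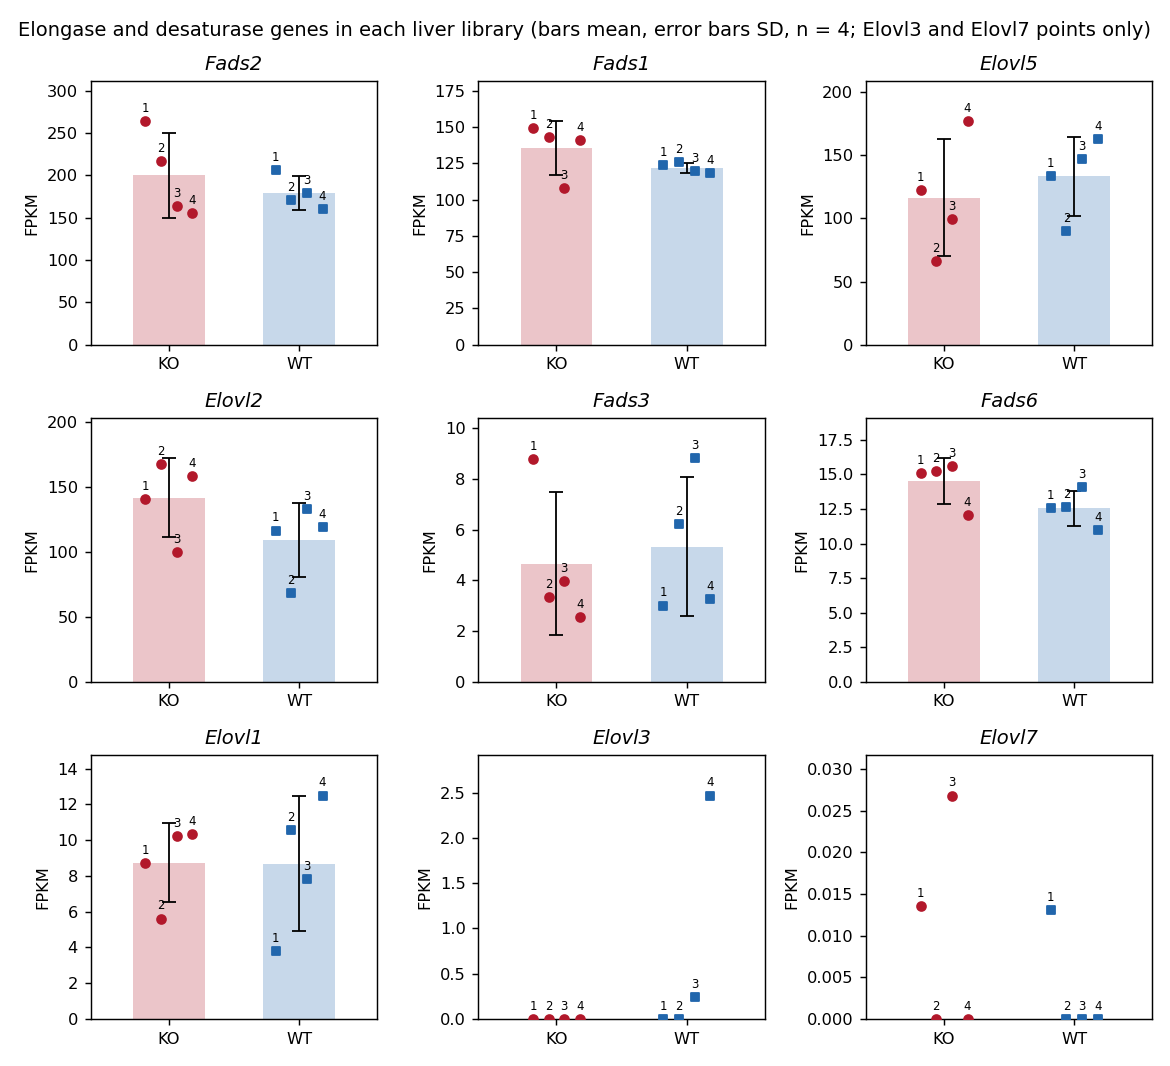
FPKM of each gene (vertical axis) in 4 KO libraries (red circles) and 4 WT libraries (blue squares), numbered by replicate, with bars for the mean and error bars for the SD; Elovl3 and Elovl7 are drawn as points only. The groups overlap in every panel, and Fads1 spans 108 to 149 FPKM in KO, against 118 to 126 FPKM in WT.

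Fads2 was the most abundant member by level per length. Fads2, which encodes the first and rate-limiting desaturase (ENSMUSG00000024665, chr19:10062765-10101746), was at 264, 217, 164 and 155 FPKM in KO and 206, 170, 179 and 159.9 FPKM in WT. Libraries KO 1 and KO 2 were above every WT library and KO 4 was below all of them, so the KO group spread to both sides of WT. The means were 199.9 ± 50.6 FPKM in KO and 179 ± 19.8 FPKM in WT (SD, n = 4 each). The log2 change was 0.13 ± 0.21 (SE; limma adjusted p = 0.921), and its 95% interval ran from 0.797-fold to 1.51-fold. The change depended on KO 1, without which it was -0.01.

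Fads1, the desaturase that acts on the elongated products (ENSMUSG00000010663, chr19:10182888-10196877), was at 149, 143, 108 and 141 FPKM in KO and 124, 126, 119.7 and 118 FPKM in WT. Of the KO libraries, 3 were above all of WT and KO 3 was below all of WT. The means were 136 ± 18.6 FPKM in KO and 122 ± 3.49 FPKM in WT (SD, n = 4 each). The log2 change was 0.14 ± 0.16 (limma adjusted p = 0.878), with a 95% interval of 0.858-fold to 1.41-fold. Fads1 stood at 0.566, 0.661, 0.661 and 0.910 of the Fads2 level in KO, against 0.600, 0.739, 0.671 and 0.741 in WT. This ratio, taken after the values were seen and not tested, overlapped between groups and was below 1 in all 8 libraries.

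Fads6 (ENSMUSG00000044788, chr11:115279622-115297663) held an HXXHH box but no QXXHH box, and encodes a desaturase with a less well described substrate. It was at 15.1, 15.3, 15.6 and 12.1 FPKM in KO and 12.5, 12.6, 14.1 and 11.0 FPKM in WT. KO 1 to KO 3 were above all of WT, whereas KO 4 was below 3 of the WT libraries. The means were 14.5 ± 1.64 FPKM in KO and 12.6 ± 1.27 FPKM in WT (SD, n = 4 each), and the log2 change was 0.19 ± 0.16 (limma adjusted p = 0.814, interval 0.888-fold to 1.47-fold).

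Fads3 encodes a desaturase that introduces a double bond into the sphingoid base of ceramides (ENSMUSG00000024664, chr19:10041569-10060110). It was at 8.77, 3.35, 3.98 and 2.56 FPKM in KO and 3.01, 6.24, 8.81 and 3.27 FPKM in WT. KO 1 and WT 3 were alike and the highest, and the groups overlapped over nearly their whole range. The log2 change was -0.17 ± 0.38 (limma adjusted p = 0.947, interval 0.493-fold to 1.596-fold), and its sign was positive without KO 4 (0.01) or without WT 3 (0.07).

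Fads3, Fads2 and Fads1 lie close together on chromosome 19, with 2655 bp between Fads3 and Fads2 and 81142 bp between Fads2 and Fads1. KO 1 was the highest KO library for all 3 genes, but the highest WT library was WT 3 for Fads3, WT 1 for Fads2 and WT 2 for Fads1. Within 100 kb of the 9 members the annotation places 38 other protein-coding genes, of which 18 were tested. By limma 0 of the 18 passed the threshold and 1 had an unadjusted p under 0.05, a share below the 9.81% of all tested genes. This was Slc9a3r1, a scaffold protein gene near Fads6, at 26.9, 33.96, 32.2 and 30.0 FPKM in KO and 50.4, 39.4, 39.2 and 40.7 FPKM in WT. Its KO values lay below all WT values (log2 change -0.45, limma adjusted p = 0.369).

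Of the 5 elongase members, Elovl2 had the largest difference between group means. Elovl2, the elongase needed for docosahexaenoic acid (ENSMUSG00000021364, chr13:41182381-41220405), was at 141, 168, 99.5 and 158 FPKM in KO and 116, 68.0, 133 and 119 FPKM in WT. Of the KO libraries, 3 were above all of WT, and KO 3 was above WT 2 only. The means were 142 ± 30.3 FPKM in KO and 109 ± 28.3 FPKM in WT (SD, n = 4 each). The fold of 1.31 had a 95% interval of 0.882 to 1.95, with a log2 change of 0.39 ± 0.25, a limma adjusted p of 0.718 and an exact two-sided permutation p of 0.171. Without WT 2 the log2 change was 0.18. With libraries scaled to equal sums the difference of means was 19.9 FPKM (exact permutation p = 0.429), against 32.5 FPKM as deposited. All genes of WT 3 summed to 455456 FPKM, and those of the other libraries to between 560525 (WT 1) and 621928 (KO 2). This scaling therefore raises WT 3 the most.

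Elovl5, the elongase between the FADS2 and FADS1 steps (ENSMUSG00000032349, chr9:77917364-77984519), was at 123, 66.6, 99.5 and 177 FPKM in KO and 134, 89.9, 147 and 163 FPKM in WT. KO 2 was the lowest and KO 4 the highest of all 8 libraries. The means were 116 ± 46.5 FPKM in KO and 133 ± 31.4 FPKM in WT (SD, n = 4 each), and the log2 change was -0.25 ± 0.31 (limma adjusted p = 0.889, interval 0.524-fold to 1.35-fold). The change was -0.01 without KO 2, -0.48 without KO 4, -0.42 without WT 2, -0.14 without WT 4 and 0.10 without KO 2 and WT 4 together.

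Averaged over the 8 libraries, Elovl2 and Elovl5 were at nearly the same level, 125.3 and 124.9 FPKM. Within libraries, Elovl2 was at 1.15, 2.52, 0.999 and 0.895 of the Elovl5 level in KO, against 0.870, 0.757, 0.903 and 0.731 in WT. Elovl2 exceeded Elovl5 in KO 1 and KO 2 and in 0 WT libraries, but KO 4 lay within the WT range, so the groups overlapped. This ratio was also chosen after the values were seen and was not tested.

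The regions just upstream of these 2 genes differ in composition, and are shown because the genes have like levels. Both come from RefSeq (GRCm38.p6), are written 5′ to 3′ on the strand of the gene and end at the base before its first exon. The Elovl5 region is chr9:77917115-77917363 on the plus strand and the Elovl2 region chr13:41220406-41220653 on the minus strand. Capitals mark a match to CACGTG, an E-box, and matches to CCAAT, which stand on the reverse strand and so read ATTGG here.

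Elovl5: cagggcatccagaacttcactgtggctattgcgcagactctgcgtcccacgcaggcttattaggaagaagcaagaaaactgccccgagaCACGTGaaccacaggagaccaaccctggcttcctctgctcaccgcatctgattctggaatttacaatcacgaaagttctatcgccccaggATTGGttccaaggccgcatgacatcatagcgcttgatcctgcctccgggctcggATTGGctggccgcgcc
Elovl2: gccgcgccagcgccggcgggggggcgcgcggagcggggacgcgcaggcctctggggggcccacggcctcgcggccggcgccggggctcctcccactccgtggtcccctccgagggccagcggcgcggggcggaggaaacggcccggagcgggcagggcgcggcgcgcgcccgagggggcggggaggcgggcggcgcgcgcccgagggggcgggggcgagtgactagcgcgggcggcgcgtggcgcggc

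The Elovl5 region held 1 CACGTG and 2 CCAAT matches that did not overlap, and its GC content over 250 bases was 55.6% with 14 CpG. The Elovl2 region had a GC content of 87.2% with 49 CpG, against medians of 52.4% and 6 CpG over 32851 regions of the same length. Searched on both strands, CACGTG occurred in 6.02% of those regions and CCAAT in 33.8%. The Elovl2 region held neither CACGTG nor CCAAT. TCACNCCAC (in 1.05% of regions), AGGTCA (14.0%) and TTATGTAA (0.819%) were absent from both the Elovl2 and the Elovl5 region. A match is a run of letters and does not show that a factor binds there.

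Elovl1, the broadly expressed elongase of very long chain saturated acids (ENSMUSG00000006390, chr4:118428093-118432953), was at 8.72, 5.62, 10.2 and 10.4 FPKM in KO and 3.77, 10.6, 7.85 and 12.5 FPKM in WT. The means were 8.73 ± 2.21 FPKM in KO and 8.67 ± 3.78 FPKM in WT (SD, n = 4 each), and all KO libraries lay inside the WT range. The log2 change was 0.08 ± 0.33 (limma adjusted p = 0.977, interval 0.633-fold to 1.76-fold). Its sign was negative with libraries scaled to equal sums (-0.02) and without WT 1 (-0.23), KO 3 (-0.0011) or KO 4 (-0.0059).

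Elovl3 (ENSMUSG00000038754, chr19:46131897-46135694), whose mRNA in mouse liver is known to be higher in males and to follow the circadian clock, was listed at 0 in all 4 KO libraries. In WT it was listed at 0 in WT 1 and WT 2, at 0.244 FPKM in WT 3 and at 2.47 FPKM in WT 4. Its mean was below the minimum for the limma fit, and the exact two-sided permutation p for the difference of means was 0.429. Since WT 1 and WT 2 also were at 0, the groups were not apart. WT 4 was also the lowest library for Dbp and the highest for Arntl. Dbp, a clock output factor, was at 20.8, 58.9, 25.8 and 43.3 FPKM in KO and 42.4, 49.3, 22.6 and 0.569 FPKM in WT. Arntl, which encodes the core activator BMAL1, was at 0.384, 0.177, 0.164 and 0.324 FPKM in KO and 0.0619, 0.0590, 0.472 and 2.46 FPKM in WT. Nr1d1, the repressor REV-ERB alpha, was at 8.10, 28.3, 9.84 and 21.7 FPKM in KO and 25.6, 25.9, 5.95 and 22.2 FPKM in WT, with WT 4 inside the range of the others. Xist, expressed from the inactive X chromosome, was at 61.4 to 93.3 FPKM in KO and 53.5 to 95.6 FPKM in WT, and Ddx3y, Kdm5d, Eif2s3y and Uty of the Y chromosome reached at most 0.0527 FPKM in any library. Every library thus had Xist and almost no Y chromosome transcripts, as female tissue does. The part that the Dbp and Arntl differences of WT 4 play in the Elovl3 values was not tested.

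Elovl7 (ENSMUSG00000021696, chr13:108214404-108285683), an elongase of saturated very long chain acids, was listed at low values or 0. It was at 0.0136 FPKM in KO 1, 0.0268 FPKM in KO 3 and 0.0131 FPKM in WT 1, and was listed at 0 in the other 5 libraries. The exact two-sided permutation p was 0.429. A 0 in this table need not mean absence: Fth1, the ferritin heavy chain gene used by every cell and a neighbour of Fads3, was at 0, 0.00517, 368 and 0 FPKM in KO and listed at 0 in all 4 WT libraries. Whether the same limit applies to the values of Elovl3 was not tested.

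**Figure D2:**
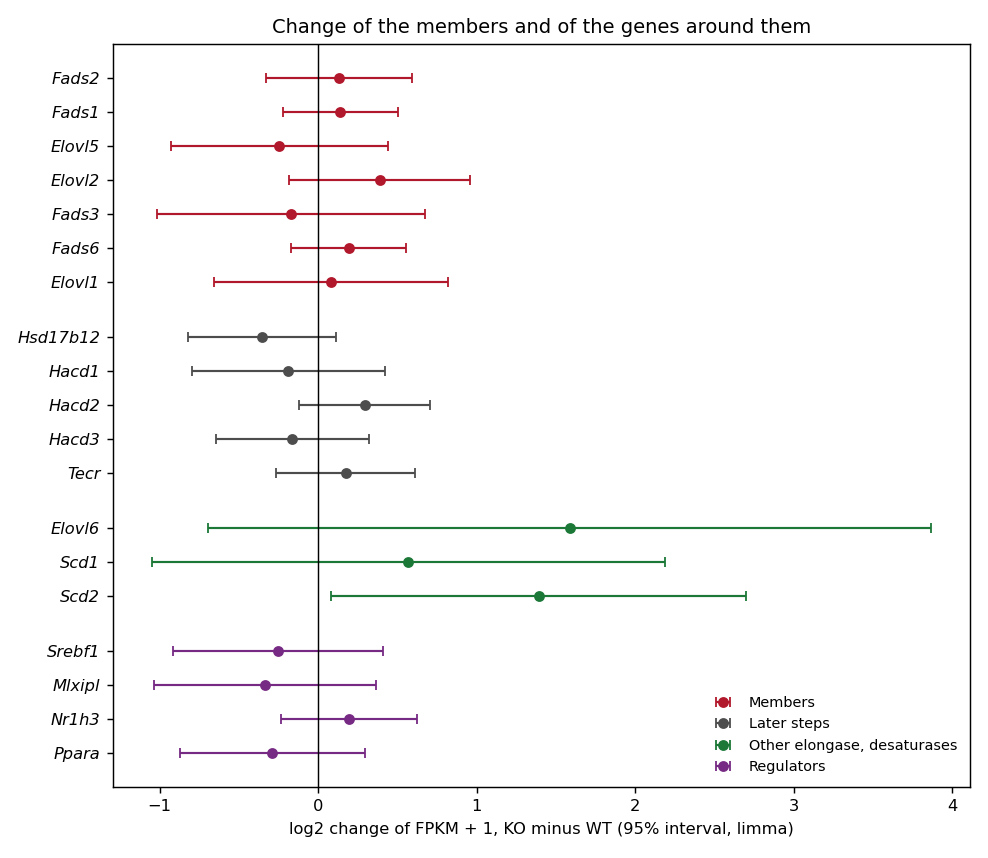
Log2 change of each tested gene, KO over WT on the log2(FPKM + 1) scale (horizontal axis), with 95% intervals from limma. The interval of every tested member crosses 0, from Fads1 (-0.22 to 0.50) to Fads3 (-1.02 to 0.67). That of Elovl6 runs from -0.70 to 3.87. The interval of the stearoyl-CoA desaturase gene Scd2 (0.08 to 2.70) does not cross 0, at a limma adjusted p of 0.473.

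By level per length over the 8 libraries the order was Fads2 (189 FPKM), Fads1 (129), Elovl2 (125.3), Elovl5 (124.9), Fads6 (13.5), Elovl1 (8.70), Fads3 (4.997), Elovl3 (0.339) and Elovl7 (0.00669). Fads2 was above Fads1 in 8 of 8 libraries and Elovl5 above Fads6 in 8 of 8. Fads1 was above Elovl2 in 4 of 8, so these neighbours were not ordered beyond their spread. The pooled means of Elovl2 and Elovl5 do not describe either group, since Elovl2 was above Elovl5 in 2 of 4 KO libraries and in 0 of 4 WT libraries. Fads6 was above Elovl1 in 7 of 8 libraries and Elovl1 above Fads3 in 6 of 8. The 4 enzymes of the main polyunsaturated route thus formed a level of their own, each higher than 97.3% or more of tested genes.

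Fads1, Fads6 and Fads2 varied little from library to library. The coefficient of variation over all 8 libraries was 11.1% for Fads1, 12.6% for Fads6 and 19.7% for Fads2, beside a median of 31.2% over tested genes. Only 1.79% of tested genes had a lower value than Fads1, and 3.52% had a lower value than Fads6. Elovl2 (25.7%), Elovl5 (30.3%) and Elovl1 (32.9%) were near the median and Fads3 (51.9%) above it. Abundant genes carry less counting error, and these shares were not matched for level.

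The elongase and desaturases of saturated acids ran over a wider range in the same libraries. Elovl6, which lengthens palmitate to stearate, was at 217, 29.1, 79.8 and 79.5 FPKM in KO and 41.7, 75.5, 60.5 and 1.603 FPKM in WT, with KO 1 highest and WT 4 lowest. Its highest library was 135 times its lowest, which rests on WT 4. Without WT 4 the ratio was 7.44 for Elovl6, beside 12.3 for Scd1 and 6.98 for Scd2, the stearoyl-CoA desaturases. With all libraries it was 12.3 for Scd1 and 16.4 for Scd2. For the members it was 1.38 for Fads1, 1.42 for Fads6, 1.70 for Fads2, 2.47 for Elovl2, 2.66 for Elovl5, 3.31 for Elovl1 and 3.45 for Fads3. The Elovl6 means were 101 ± 80.5 FPKM in KO and 44.8 ± 31.97 FPKM in WT (SD, n = 4 each), with a log2 change of 1.59 ± 1.02 (limma adjusted p = 0.704). The change was 0.46 without WT 4. WT 4, lowest for Elovl6, was inside the range of the other WT libraries for Elovl2, the highest of WT for Elovl5 and the lowest of WT for Fads2 and Fads1.

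**Figure D3:**
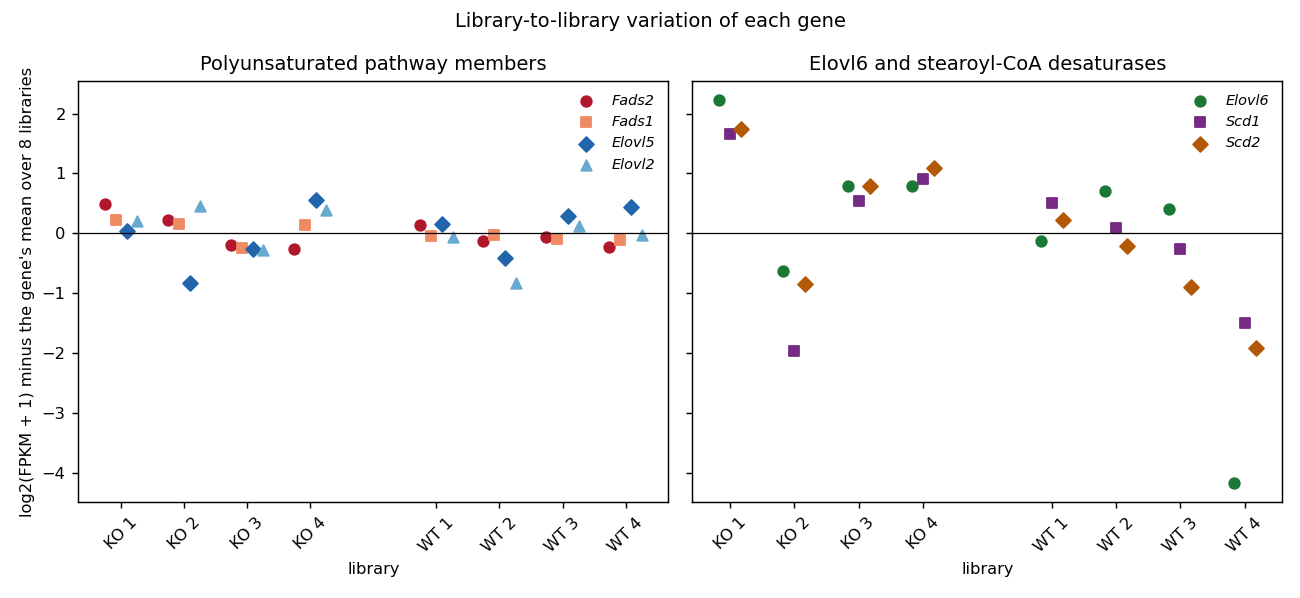
Deviation of log2(FPKM + 1) from each gene's mean over the 8 libraries (vertical axis) in each KO and WT library (horizontal axis), for Fads2, Fads1, Elovl5 and Elovl2 (left) and Elovl6, Scd1 and Scd2 (right). Points on the left stay within 1 log2 unit of 0, whereas Elovl6 in WT 4, at 1.603 FPKM, lies far below its other libraries.

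The rest of the pathway was examined as 7 lists of 59 genes, of which 48 were tested: by limma 0 were higher, 0 were lower and 5 had an unadjusted p under 0.05. Of all tested genes, 1105 of 11266 (9.81%) had an unadjusted p under 0.05, so these 5 are near the background. In the elongation cycle, 5 of 7 genes were tested, with a median log2 change of -0.16. Hsd17b12, the ketoacyl-CoA reductase, averaged 19.4 ± 2.47 FPKM in KO and 25.6 ± 7.03 FPKM in WT (SD, n = 4 each). Its log2 change was -0.36, at a limma adjusted p of 0.658. Tecr, the enoyl-CoA reductase of the last step, averaged 87.3 ± 14.3 FPKM in KO and 77.5 ± 14.7 FPKM in WT (log2 change 0.17, limma adjusted p = 0.875). Of the dehydratase genes, Hacd3 had a log2 change of -0.16, Hacd2 of 0.29 and Hacd1 of -0.19, with limma adjusted p of 0.899, 0.697 and 0.910. Tecrl and Elovl4, an elongase of retina, brain and skin, were listed at 0 in all libraries.

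Among the other elongase and desaturase genes, 4 of 6 were tested (median log2 change 0.98, 3 positive and 1 negative). The negative one was Degs1, which desaturates dihydroceramide to ceramide, at 7.78, 7.48, 11.7 and 11.5 FPKM in KO and 13.0, 12.2, 13.2 and 21.1 FPKM in WT. Every KO library was below every WT library, but the limma adjusted p was 0.431 (log2 change -0.57). Of this list Scd2 had the next smallest p, averaging 27.6 ± 16.9 FPKM in KO and 9.47 ± 5.79 FPKM in WT (SD, n = 4 each; limma adjusted p = 0.473). Of 4 tested genes that pass electrons to the desaturases, 3 had negative changes (median -0.34). Cyb5r4, a cytochrome b5 reductase gene, was at 0.991, 1.21, 1.13 and 1.33 FPKM in KO and 1.43, 3.01, 2.83 and 1.78 FPKM in WT, again without overlap (log2 change -0.56, limma adjusted p = 0.369).

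Peroxisomes shorten very long chain acids and complete docosahexaenoic acid. All 9 genes of this list were tested, 3 positive and 6 negative, with a median of -0.23. By limma 0 of them passed the threshold and 2 had an unadjusted p under 0.05. Genes that activate polyunsaturated acids and place them in phospholipids had a median of 0.01 (8 tested, 4 positive), with Acsl5, an acyl-CoA synthetase, at 67.2 ± 15.3 FPKM in KO and 49.96 ± 3.37 FPKM in WT (limma adjusted p = 0.553). Genes that use very long chains had a median of 0.07 (6 tested, 5 positive), and the smallest p was that of the ceramide synthase Cers6, at 11.1 ± 4.41 FPKM in KO and 8.70 ± 7.13 FPKM in WT (limma adjusted p = 0.835).

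Transcription factors known to act on Fads1, Fads2 and Elovl5 did not pass the threshold. The regulator list, 12 of 12 tested, had 4 positive and 8 negative changes and a median of -0.10. Srebf1, which encodes SREBP-1, averaged 83.2 ± 20.1 FPKM in KO and 103 ± 38.8 FPKM in WT (SD, n = 4 each), with a log2 change of -0.25 and a limma adjusted p of 0.881. Mlxipl, the gene of the glucose-responsive factor ChREBP, had a log2 change of -0.33, Nr1h3 (LXR alpha) of 0.19 and Ppara of -0.29, with limma adjusted p of 0.842, 0.856 and 0.830. Scap, the escort of SREBP, had the smallest p of the list, at 30.2 ± 8.61 FPKM in KO and 22.0 ± 4.30 FPKM in WT (limma adjusted p = 0.697).

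Of 12 tested clock genes, 0 passed the threshold by limma and 1 had an unadjusted p under 0.05. Hlf, a clock output factor related to Dbp, was at 5.23, 7.72, 6.97 and 11.9 FPKM in KO and 14.3, 15.9, 13.4 and 12.7 FPKM in WT, with no overlap (log2 change -0.80, limma adjusted p = 0.206). Of 4 tested genes known to be higher in male liver, 2 had positive and 2 negative changes, with a median of -0.07. Mup20, a major urinary protein gene, passed, at 10.9, 13.7, 9.43 and 7.52 FPKM in KO and 1.28, 1.52, 2.02 and 1.79 FPKM in WT (log2 change 2.08, limma adjusted p = 0.00295). Cyp7b1, an oxysterol hydroxylase gene, went the other way, at 1.38, 0.961, 0.506 and 1.02 FPKM in KO and 1.498, 1.45, 2.57 and 4.95 FPKM in WT, and no KO library overlapped WT (log2 change -0.80, limma adjusted p = 0.389). Of 10 tested genes known to be higher in female liver, 0 passed by limma and 3 had an unadjusted p under 0.05, with a median of -1.50, beside the 9.81% of all tested genes under that p. Of these Cyp3a41a, a cytochrome P450 gene, had the smallest p, at 0.898, 0.882, 0.701 and 1.59 FPKM in KO and 128, 33.9, 8.36 and 3.69 FPKM in WT (log2 change -3.40, limma adjusted p = 0.140).

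The genes whose profiles over the 8 libraries were most like each member are given as a description, by Pearson's r of log2(FPKM + 1) over the same libraries, among 11266 genes. Among the 3 closest were Gatad2b (r = 0.932) and Snord13 for Fads1, and the closest were Gm24730 (0.945), Zkscan17 and Srbd1 for Fads2. For Fads3 they were Ifnk (0.950), Pisd-ps2 and Cul9, and for Fads6 Ppif (0.970), Ino80d and Phf14. For Elovl1 they were Pigq (0.986), Gm5864 and Sharpin, for Elovl2 Mir8112 (0.921), Dennd6a and Sar1b, and for Elovl5 they included C2cd3 (0.981) and Hnrnpa3. No member appeared in another member's 3 closest genes. No p is attached to these values, since the closest genes were picked from all tested genes and the points share their libraries.

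**Figure D4:**
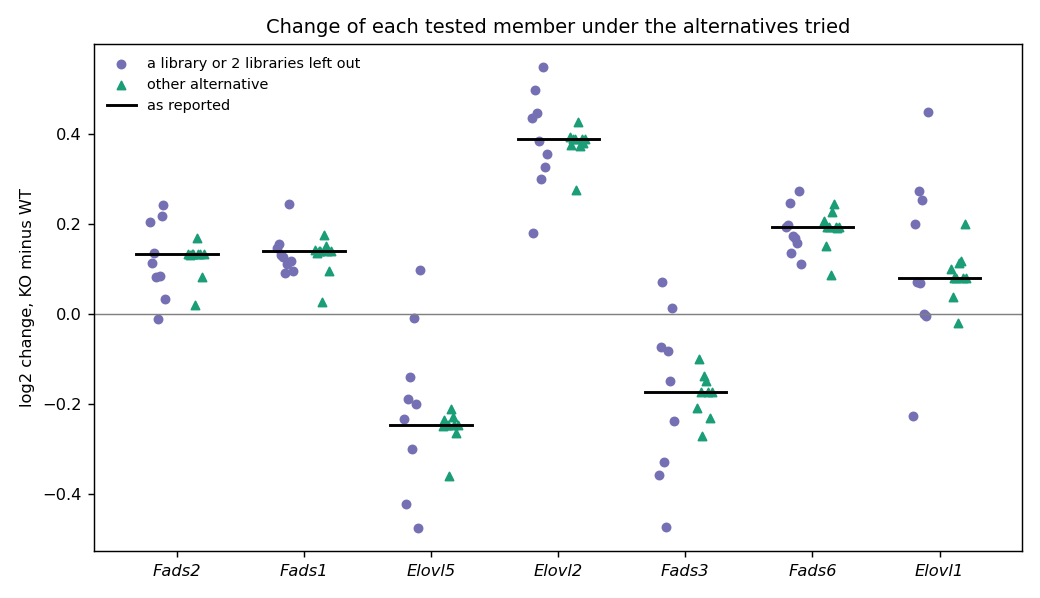
Log2 change, KO over WT on the log2(FPKM + pseudocount) scale, of each tested elongase and desaturase under the reported settings and under 19 alternatives (18 for Fads3, whose mean is below the higher minimum of 5 FPKM). Elovl2, Fads1 and Fads6 stay above 0 throughout, while points of Elovl1, Elovl5, Fads2 and Fads3 lie on both sides of 0.

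The direction of Elovl2, Fads1 and Fads6 was positive under all 19 alternative settings, but the size moved. With libraries scaled to equal sums Fads1 was at 0.03 and Fads6 at 0.09, while all tested genes had a median of -0.12. Fads1 was at 0.24 without KO 3 and 0.09 without KO 1. No member passed the threshold under any of them. The lowest adjusted p of a member in these limma fits was 0.553, that of Elovl2.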

How the data were processed

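Total RNA of frozen liver was sequenced in 8 libraries, isolated with Trizol and a Qiagen kit and prepared with Nugen reagents, per the labels' protocols. The authors deposited 1 table of FPKM values for 35638 genes. The submitters' processing notes name TopHat, edgeR and mm10. No source used here gives their versions or roles, the annotation, or the program behind the FPKM values. FPKM is relative to the library, so abundant transcripts lower the values of others.

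Groups followed the labelled genotype. Log2(FPKM + 1) of genes with a mean of at least 1 FPKM was tested with limma 3.58.1 (R 4.3.3, intensity trend, two-sided, Benjamini-Hochberg adjustment over all tested genes, threshold 0.05). The script was tested on simulated data. Fold changes on this scale understate changes of low genes. Single values were tested by exact two-sided permutation over 70 splits. Figures used matplotlib 3.10.9. Depth was estimated by finding the step of 1 read in low FPKM values, using 12059 genes with 1 annotated transcript of at least 400 nt. Of these values 56.6 to 60.5% came within 0.1 of a whole read, where chance gives 20%, so no reads were rebuilt and counting intervals are not given. GENCODE M21 (GRCm38, which mm10 denotes) held 35421 of the gene IDs (99.4%), and RefSeq gave upstream sequence.

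The members and lists were chosen with earlier results of these data known. Named genes are the members, Arid1a, the tested elongation cycle genes, Elovl4, Elovl6, Srebf1, Mlxipl, Nr1h3, Ppara, Dbp, Nr1d1, Arntl, the sex chromosome genes, in each list those past the threshold or else the one of smallest p, the 3 genes closest to each member by correlation, and neighbours within 100 kb. Genes with an unadjusted p under 0.05 in a list, Cyp7b1, Fth1, Scd1, Scd2, Sox9, Spp1 and Tecrl were named after their values were seen. A few genes that this rule selects are not reported here. Alternatives covered the pseudocount, the filter, scaling, trend, library weights, a replicate block and left-out libraries.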

Additional observations from a re-analysis of the deposited data

Results flagged for a closer look

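Of 70 groups of 4 libraries, those with the same value throughout were passed over. In the rest, a library was marked by its gap to the nearest other as a share of the group's range. The mark was set above Dixon's 95% critical value, which chance exceeds in about 1 in 20 groups. Fads6 was at 12.1 FPKM in KO 4, against 15.1 to 15.6 FPKM in the other KO libraries. Elovl3 was at 2.47 FPKM in WT 4, against 0 to 0.244 FPKM in the other WT libraries. Elovl7 was at 0.0131 FPKM in WT 1 and listed at 0 in the other WT libraries. With those at 0 any value above 0 is marked, so the rate by chance does not hold for Elovl7. Degs1 was at 21.1 FPKM in WT 4, against 12.2 to 13.2 FPKM in the other WT libraries.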

How the results depend on the processing

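Under 19 alternative settings 0 members passed the threshold, and limma adjusted p of members ran from 0.553 to 0.9996. Of 132 member changes, 124 kept their direction and 8 reversed. Leaving out 1 library at a time gave log2 changes of -0.227 to 0.273 for Elovl1 (negative without WT 1, at -0.00115 without KO 3 and at -0.00594 without KO 4), -0.473 to 0.0712 for Fads3 (positive without WT 3, and at 0.0131 without KO 4) and -0.0110 to 0.242 for Fads2 (negative without KO 1). Elovl1 was at -0.0205 with libraries scaled to equal sums of FPKM, and Elovl5 at 0.0967 without WT 4 and KO 2 together. The difference of Elovl1 means was -0.502 FPKM with equal sums (exact permutation p = 0.714), a scaling that moved the median change of all genes to -0.12. Of 415 changes of 22 other genes selected by the naming rule, 411 kept direction and side of the threshold. Leaving out 1 library gave -0.0762 to 1.59 for Dbp (negative without WT 4) and -0.673 to 0.0679 for Nr1d1 (positive without KO 1). Without WT 4 and KO 2 together Dbp was at -0.331 and Cers6 at -0.158. The causes were not tested.

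The counts over all genes (46 higher, 40 lower) moved more. A pseudocount of 5 FPKM gave 27 higher, no filter gave 26 lower, and a minimum of 5 FPKM gave 14 higher and 13 lower. Without WT 4 and KO 2 together 75 were higher. Leaving out 1 library at a time gave 20 to 92 higher and 14 to 44 lower. The count higher was 20 without WT 1 or KO 4, 21 without KO 3, 23 without WT 2 or WT 3 and 92 without KO 2. The count lower was 17 without WT 1, 23 without WT 2, 19 without WT 3 or KO 4, 21 without KO 1 and 14 without KO 3. The replicate numbers showed no clear pairing of the libraries. Deviations of same-numbered libraries correlated at 0.096, -0.067, 0.015 and 0.25, and 1 of 4 KO libraries correlated best with its own number. Such correlations cannot exclude a pairing. With a replicate block 16 genes were higher and 8 lower, and 0 members passed. With 4 libraries a group at this depth, the members below 1 FPKM could not be compared closely.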
